A study of Mus musculus with 22 samples.

Results

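Neural crest transcription factors are the 7 genes Pax3, Pax7, Tfap2a, Tfap2b, Foxd3, Sox10 and Ets1, and they were taken by gene symbol from the authors' 3 tables of differential expression. All 7 were present in each table, among 18632 genes that the 3 tables share. The tables come from messenger RNA sequencing of mouse cells, all of which carry the Col2.3GFP transgene: green fluorescent protein (GFP) under part of a type I collagen promoter, which is active in cells of the osteoblast lineage. The labels place 22 samples in 8 groups, of which 5 were used. ESC-OB GFP+ (3 samples) are cells sorted for GFP from osteoblast cultures of embryonic stem cells. ESC-OB (3) are the unsorted cultures, and iPSC-OB (2) are cultures grown from induced pluripotent stem cells, which are reprogrammed somatic cells. ESC (3) and iPSC (2) are the undifferentiated stem cells. Embryoid bodies were grown for 6 days, retinoic acid was present at 0.1 µM between day 3 and day 5, and osteogenic medium was then used until 35 to 40 days. Passages were 20 to 30 for ESC and ESC-OB and 10 to 20 for iPSC and iPSC-OB. The stem cells had been grown on mouse embryonic fibroblast feeders or without feeders, and the differentiated groups were grown without LIF, PD0325901 and CHIR99021, which keep mouse stem cells undifferentiated (the last 2 inhibit the kinases MEK and GSK3). The labels do not say whether replicates were separate cultures, and the p-values then cover the spread between these samples, which may be technical. The calvarial-OB, bone GFP+(hi) and bone GFP+(lo) groups were not analysed here.

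The neural crest is a population of embryonic cells that forms at the border of the neural plate, leaves the dorsal neural tube and migrates through the body. It gives rise to peripheral neurons and glia, to pigment cells and, in the head, to much of the bone and cartilage of the face and to part of the skull vault. Border specifiers such as Pax3, Pax7 and the AP-2 factors Tfap2a and Tfap2b act first, specifiers such as Foxd3, Ets1 and Sox10 follow, and most of these genes are switched off as crest cells become bone. Several of them also work outside the crest: Foxd3 in pluripotent cells, Pax3 and Pax7 in muscle progenitors, Tfap2a in surface ectoderm, Sox10 in glia and Ets1 in endothelium, blood and mesenchyme.

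For each gene the tables give a base mean, which is the average count per library after scaling for depth, and a log2 fold change, followed here by its standard error after a ± sign, with a test and an adjusted p-value. Fold changes here are positive where the differentiated cells were higher. Base means are sums of whole reads weighted by depth, and for genes with few reads the reads of every single library could be read back from them, as described with the processing. That decoding gave 9 libraries for the ESC fit and 5 for the iPSC fit, of which 3 lay on the iPSC side, against 2 iPSC samples in the labels used here. A normalised count is a library's reads divided by its size factor. Libraries are numbered in a group from the largest size factor, called the deepest here, to the smallest, with no tie to a labelled replicate. Read totals were not known, so depth was estimated as a library's size factor times the summed base means of its fit. That gave 22.4 to 30.1 M reads in ESC-OB GFP+, 6.72 to 11.5 M in ESC-OB and 10.1 to 17.7 M in iPSC-OB. ESC libraries came to 4.49 to 19.5 M and iPSC libraries to 10.4 to 13.0 M. Both ESC tables share their ESC libraries, and the ESC and iPSC fits were normalised separately. In bulk RNA, fewer cells of a type and less RNA per cell cannot be told apart. Over genes whose base mean reached 10, the median log2 fold change was 0.21 in ESC-OB GFP+, 0.19 in ESC-OB and 0.06 in iPSC-OB, and member changes below stand against that shift.

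The 7 genes did not move as 1 group. Foxd3 was lower and Ets1 higher in the differentiated cells in all 3 comparisons. Pax3 passed the test in both unsorted cultures, Sox10 in ESC-OB, Tfap2a and Tfap2b in iPSC-OB and Pax7, at lower level, in the sorted cells. In ESC-OB GFP+ against ESC, 3 of the 7 passed an adjusted p of 0.05 in the authors' deposited table, where 71.5% of all genes tested did (39.1% higher and 32.4% lower). Ets1 was higher, Foxd3 and Pax7 were lower, and the median member lay at 0.09, against 0.33 for all genes. In ESC-OB against ESC, 4 passed in the authors' deposited table, against 69.6% of all genes tested (38.6% higher and 31.0% lower). Ets1, Pax3 and Sox10 were higher, Foxd3 was lower, and the median member lay at 2.81, against 0.22 for all genes. In iPSC-OB against iPSC, 5 passed in the authors' deposited table, against 49.2% of all genes tested (26.1% higher and 23.1% lower). Ets1, Pax3, Tfap2a and Tfap2b were higher, Foxd3 was lower, and the median member lay at 2.35, against 0.17 for all genes. With 7 members, these counts describe the genes named and show nothing particular to the crest list.

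Where single libraries could be decoded, the groups were also set side by side without a model. In ESC-OB GFP+ against ESC, 2 of the 4 decoded members did not overlap (Pax3 higher, Pax7 lower), against 40.1% of the decoded genes with at least 5 reads over both groups (25.7% higher and 14.4% lower). Of these members Tfap2b lies under that minimum, with 4 reads in ESC-OB GFP+ and 0 in ESC. In ESC-OB against ESC all 4 did not overlap (Pax3, Sox10 and Tfap2b higher, Pax7 lower), against 45.8% (28.8% higher and 17.1% lower). In iPSC-OB against iPSC 5 of the 6 decoded members did not overlap (Pax3, Tfap2a and Tfap2b higher, Sox10 and Foxd3 lower), against 54.7% (35.2% higher and 19.5% lower). These shares come from genes with base means under 6 in the ESC fit and under 30 in the iPSC fit, and Foxd3 lies above that.

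**Figure D1:**
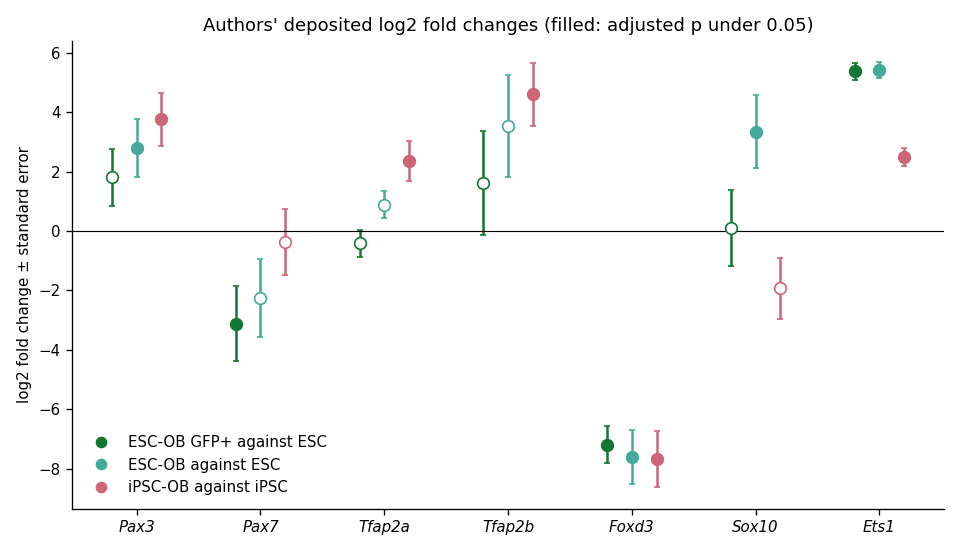
Log2 fold change (vertical axis, ± the authors' standard error) of the 7 genes in ESC-OB GFP+ against ESC, ESC-OB against ESC and iPSC-OB against iPSC, from the authors' deposited table. Filled points passed an adjusted p of 0.05; Foxd3 lies between -7.67 and -7.19 and Ets1 between 2.49 and 5.42 in all 3, while Sox10 lies on both sides of 0.

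Promoter sequences are shown for Foxd3 and Tfap2b, the members with the largest fall and the largest rise in iPSC-OB. They run from 250 bases before to 50 bases after the annotated start, on the gene's strand, and come from RefSeq on build GRCm38.p6; the authors' notes name mm9, so the coordinates belong to RefSeq's build only. Capitals mark the E-box CANNTG, the letters that basic helix-loop-helix factors such as Twist1 bind.
Foxd3, chr4:99656049-99656348, plus strand: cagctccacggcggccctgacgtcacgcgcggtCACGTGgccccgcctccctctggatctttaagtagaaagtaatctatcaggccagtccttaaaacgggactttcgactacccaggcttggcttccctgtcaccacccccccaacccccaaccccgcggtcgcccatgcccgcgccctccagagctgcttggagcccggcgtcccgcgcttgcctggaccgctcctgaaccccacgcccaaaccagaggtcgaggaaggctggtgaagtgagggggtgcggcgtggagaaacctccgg
Tfap2b, chr1:19211804-19212103, plus strand: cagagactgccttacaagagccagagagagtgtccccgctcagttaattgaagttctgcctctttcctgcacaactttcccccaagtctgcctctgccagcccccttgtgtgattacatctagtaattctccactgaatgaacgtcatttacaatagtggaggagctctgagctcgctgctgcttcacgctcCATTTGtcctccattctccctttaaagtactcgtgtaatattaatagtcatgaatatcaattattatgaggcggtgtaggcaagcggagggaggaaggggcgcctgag
The Foxd3 match starts 217 bases and the Tfap2b match 58 bases upstream of the start, and 72.3% of 32851 mouse promoters of the same length hold at least 1 such match on either strand. The Foxd3 window holds 25 CG dinucleotides and the Tfap2b window 8, against a median of 7 over all promoters. Searches on both strands for the AP-2 site GCCNNNGGC (in 16.6% of all promoters), the nuclear receptor half-site AGGTCA (16.3%), the octamer ATGCAAAT (1.74%) and the TATA box TATAAA (13.6%) found no match in these windows, nor in those of Pax7 and of both annotated starts of Tfap2a. Of the 7 genes, 4 had an entry in the promoter table.

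Pax3 encodes a paired-box factor of the neural plate border and dorsal neural tube. It had 11, 13 and 8 reads in the ESC-OB GFP+ libraries (normalised counts 4.36, 6.08 and 4.25), 11, 8 and 5 in ESC-OB (11.4, 9.78 and 8.87) and 2, 1 and 0 in ESC (1.22, 2.23 and 0). Every differentiated library lay above every ESC library, and every sorted library lay below every unsorted one. The log2 fold change in the authors' deposited table was 1.81 ± 0.97 in ESC-OB GFP+ (adjusted p = 0.0836), which misses the threshold. In ESC-OB the authors' deposited table gives 2.81 ± 0.98 (adjusted p = 0.00681), in a comparison where 38.6% of all genes tested were called higher. Reads pooled over libraries and scaled for depth were 4.01 times those of ESC in ESC-OB GFP+ (exact 95% counting interval 1.26 to 20.5) and 8.38 times in ESC-OB (2.55 to 43.5). Such intervals cover counting error only, and reads without molecular identifiers are not independent molecules. Leaving out the deepest ESC library, which holds 2 of the 3 ESC reads, moved the log2 ratio of decoded means. It became 0.43 in ESC-OB GFP+, against 2.01 with all libraries, and 1.46 in ESC-OB, against 3.04. In all of these values the ESC mean was raised to the level of 3 reads over the group. That level rises when a library is left out.

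In iPSC-OB, Pax3 had 78 and 17 reads (54.1 and 20.6 normalised), against 1, 1 and 3 reads in the iPSC libraries. Both iPSC-OB libraries lay above every iPSC library. The authors' deposited table gives 3.77 ± 0.89 (adjusted p = 9.98e-05), with 26.1% of all genes tested called higher. The pooled ratio was 24.1 (9.96 to 75.8).

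Pax7, the paralogue of Pax3, was near the limit of detection in every group. It had 1, 2 and 0 reads in ESC-OB GFP+, 0, 1 and 1 in ESC-OB and 4, 3 and 3 in ESC (2.44, 6.70 and 7.97 normalised). All differentiated libraries lay below all ESC libraries. The fold change in the authors' deposited table was -3.11 ± 1.25 in ESC-OB GFP+ (adjusted p = 0.0191) and -2.25 ± 1.32 in ESC-OB (adjusted p = 0.117), so the call of lower holds for the sorted cells, in which 32.4% of all genes tested were called lower. The pooled ratios were 0.113 (0.0200 to 0.438) in ESC-OB GFP+ and 0.210 (0.0223 to 0.984) in ESC-OB. Without ESC-OB GFP+ library 1 the log2 ratio of decoded means in the sorted cells was -2.93, against -3.64 with all libraries. Both values have the ESC-OB GFP+ mean (0.444 with all libraries) raised to the level of 3 reads over the group. In the iPSC fit Pax7 had 5 and 1 reads in iPSC-OB and 5, 3 and 2 in iPSC, and the groups overlap. The authors' deposited table lists -0.37 ± 1.11 for it (adjusted p = 0.805), and the pooled ratio of 0.760 has an interval of 0.227 to 2.31, so neither a rise nor a fall within that range was detectable at this depth.

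**Figure D2:**
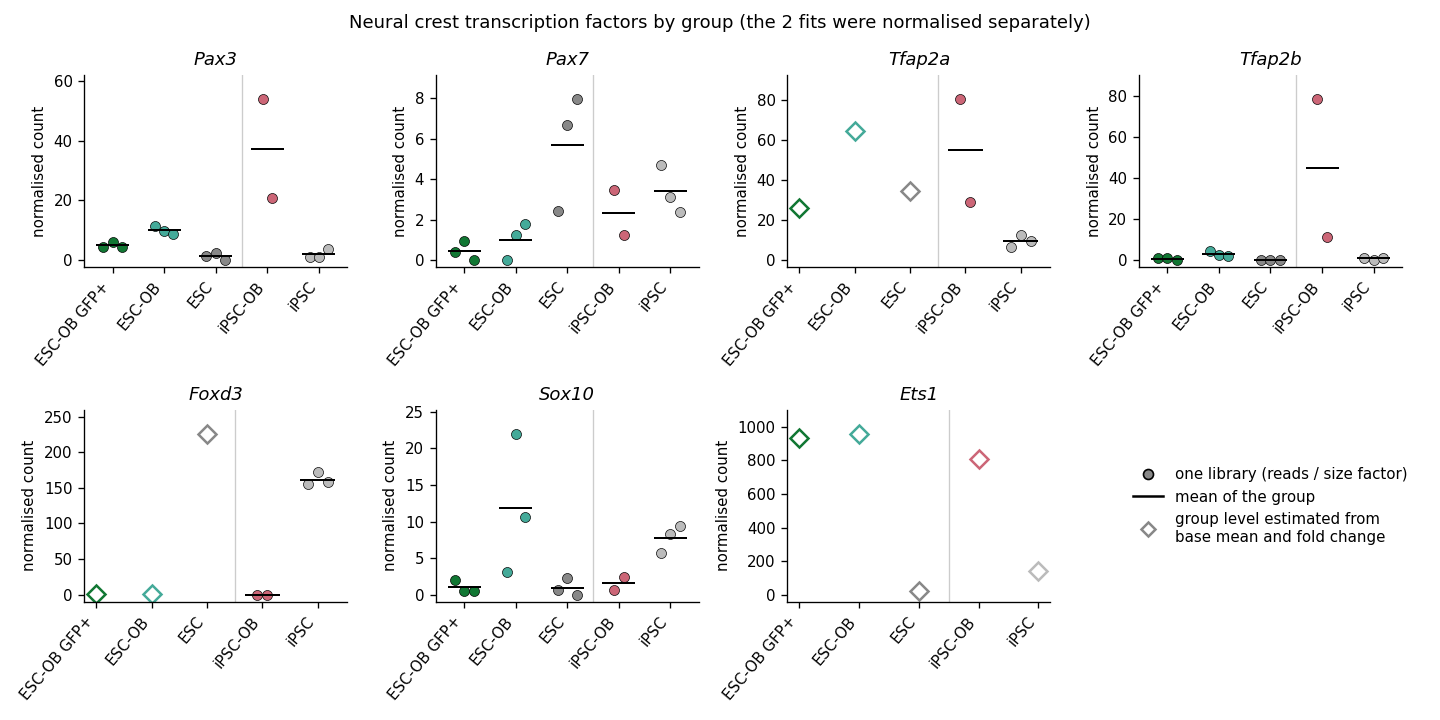
Normalised counts (vertical axes, linear, a scale of its own for each gene) in ESC-OB GFP+, ESC-OB, ESC, iPSC-OB and iPSC. Points are single decoded libraries, black lines group means, and open diamonds group levels estimated from the authors' base means and fold changes where single libraries could not be decoded; Sox10 reaches 22.0 in 1 ESC-OB library and Tfap2b 78.4 in 1 iPSC-OB library.

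Tfap2a encodes AP-2 alpha, which acts at the neural plate border and in surface ectoderm. Its ESC-fit base mean of 41.7 was too high to be decoded, so group levels were estimated from base mean and fold changes, and carry no spread over libraries. They came to 26.1 normalised counts in ESC-OB GFP+, 64.4 in ESC-OB and 34.7 in ESC. In the authors' deposited table the fold changes were -0.41 ± 0.46 in ESC-OB GFP+ (adjusted p = 0.421) and 0.89 ± 0.46 in ESC-OB (adjusted p = 0.0721), and neither passed. In the iPSC fit Tfap2a was decoded: it had 116 and 24 reads in iPSC-OB (80.4 and 29.1 normalised), against 7, 12 and 8 in iPSC (6.59, 12.5 and 9.41). The groups do not overlap. The authors' deposited table gives 2.35 ± 0.68 (adjusted p = 0.00172), and the pooled ratio was 6.57 (4.33 to 10.3). Of 15 surface ectoderm and epithelial genes, 12 were higher and 2 lower in ESC-OB GFP+, 10 higher and 3 lower in ESC-OB, and 8 higher and 6 lower in iPSC-OB. Over all genes tested, 39.1% were higher and 32.4% lower in ESC-OB GFP+, 38.6% and 31.0% in ESC-OB, and 26.1% and 23.1% in iPSC-OB. The part of these epithelial genes in the Tfap2a values was not tested.

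Tfap2b encodes AP-2 beta, a partner of AP-2 alpha in the crest. It had 2, 2 and 0 reads in ESC-OB GFP+, 4, 2 and 1 in ESC-OB and 0 in each of the 3 ESC libraries. The ESC-OB libraries (4.14, 2.44 and 1.77 normalised) lay above both other groups, while ESC-OB GFP+ and ESC overlap at 0. Against the 3 reads that a count of 0 over the ESC group allows, Tfap2b was at least 2.29-fold higher in ESC-OB. That bound rests on the deepest ESC library: without it, the log2 ratio against 3 reads was -0.39, against 1.19 with all libraries, and no longer sets ESC-OB above ESC. The authors' deposited table has 1.62 ± 1.74 in ESC-OB GFP+ (adjusted p = 0.403) and 3.54 ± 1.73 in ESC-OB (adjusted p = 0.058), and neither passed. In iPSC-OB the gene had 113 and 9 reads (78.4 and 10.9 normalised), against 1, 0 and 1 in iPSC, and the pooled ratio was 77.3 (20.9 to 645). The fold change there was 4.61 ± 1.05 in the authors' deposited table (adjusted p = 5.19e-05), the largest rise among the 7 genes in that comparison.

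The iPSC-OB libraries differed from each other. For all 3 decoded members called higher, library 1 held the higher level. Without it the log2 ratio of decoded means was 1.62 for Tfap2a, against 2.53 with both. It was 3.39 for Tfap2b, against 5.42, and 3.49 for Pax3, against 4.35. For Tfap2b the iPSC mean of 0.706 was raised to the level of 3 reads over the group, 1.05, in both values. Over 3250 decoded genes with at least 10 reads in iPSC-OB, the median log2 ratio of library 1 to library 2 was 1.11, and 2453 were higher in library 1. The ratio was 1.37 for Pax3, 1.45 for Tfap2a and 2.79 for Tfap2b, and 43.7%, 41.8% and 15.2% of those genes had a larger one. Of 12 central nervous system progenitor genes, 8 could be decoded, and all 8 were higher in library 1, with a summed normalised count of 911 there, 61.9 in library 2 and 142 to 172 in the iPSC libraries. Sox1, an early neural gene, stood at 142 and 4.86 in the iPSC-OB libraries and at 3.14 to 7.53 in iPSC. Library 1 was the higher for most decoded genes of every other list too. These were 9 of 9 other crest transcription factors (summed 1216, against 373 in library 2), 7 of 8 plate border genes and 3 of 5 migratory crest genes, for example. The 5 decoded osteoblast genes, all higher in library 1, summed to 361 there, 165 in library 2 and 36.6 to 52.7 in iPSC. The part that this library difference has in the crest values was not tested beyond leaving each library out.

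Foxd3 encodes a forkhead repressor that specifies crest and is also required in pluripotent cells. In the iPSC fit it had no read in either iPSC-OB library, against 165, 164 and 134 reads in iPSC (155, 171 and 158 normalised, mean 161 ± 8.74, SD, n = 3). With 3 reads allowed for a count of 0 over the group, Foxd3 was at least 122-fold lower in iPSC-OB. Without iPSC-OB library 1 the bound, as a log2 ratio, was -5.47, against -6.93 with both libraries. The authors' deposited table lists -7.67 ± 0.96 (adjusted p = 1.57e-14), and 23.1% of all genes tested were called lower. Group levels estimated from the ESC fit were 1.55 normalised counts in ESC-OB GFP+, 1.16 in ESC-OB and 226 in ESC. The fold changes in the authors' deposited table were -7.19 ± 0.63 in ESC-OB GFP+ (adjusted p = 1.03e-29) and -7.61 ± 0.92 in ESC-OB (adjusted p = 8.16e-16), where 31.0% of all genes tested were called lower. Of 12 pluripotency genes, all shared the sign of Foxd3 in ESC-OB GFP+ (median -8.79). In ESC-OB (median -8.67) and in iPSC-OB (median -7.03), 11 did. The direction of the folds was read from the pluripotency genes, so that they fell was set by that reading. The sign they share with Foxd3 was not. Among 13767 genes with a base mean of at least 10 in both fits, the 3 whose log2 fold changes in the authors' deposited table lay nearest to those of Foxd3 were Lefty1, Dppa5a and BC033916, at Euclidean distances of 1.18, 1.24 and 1.31 over the 3 comparisons. Lefty1 encodes a Nodal antagonist and Dppa5a is a pluripotency-associated gene.

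Sox10 encodes the SoxE factor of migrating crest, glia and pigment cells. It had 5, 1 and 1 reads in ESC-OB GFP+ (1.98, 0.468 and 0.532 normalised), 3, 18 and 6 in ESC-OB (3.10, 22.0 and 10.6) and 1, 1 and 0 in ESC. The ESC-OB libraries lay above all others, with a spread of 9.51 (SD, n = 3) around a mean of 11.9, while ESC-OB GFP+ and ESC overlap. The authors' deposited table gives 0.09 ± 1.28 in ESC-OB GFP+ (adjusted p = 0.957) and 3.35 ± 1.23 in ESC-OB (adjusted p = 0.0103). The pooled ratios were 1.32 (0.251 to 13.0) in ESC-OB GFP+ and 14.1 (3.56 to 123) in ESC-OB. Leaving out ESC-OB library 2 left a log2 ratio of decoded means of 2.50 in ESC-OB. Leaving out the deepest ESC library left 1.71, against 3.29 with all libraries. In each of these values the ESC mean (0.948 with all libraries) was raised to the level of 3 reads over the group (1.22 with all libraries). That level rises when an ESC library is left out, so the lower value reflects it. Library 2 also held the most reads for 5 of the 6 autonomic and sensory neuron genes that were decoded with reads in ESC-OB (of 16 in the list), with a summed normalised count of 53.8, against 11.4 and 14.2 in the other ESC-OB libraries, 7.45 to 14.5 in ESC-OB GFP+ and 5.31 to 24.6 in ESC. Th, which encodes the rate-limiting enzyme of catecholamine synthesis, stood at 19.6 normalised counts in that library, against 2.07 and 0 in the other ESC-OB libraries. The part of such cells in the Sox10 value was not tested.

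In the iPSC fit the Sox10 libraries were ordered the other way. The gene had 1 and 2 reads in iPSC-OB (0.694 and 2.43 normalised), against 6, 8 and 8 in iPSC (5.65, 8.37 and 9.41), and the groups do not overlap. The pooled ratio was 0.173 (0.0331 to 0.575), but the fold change in the authors' deposited table, -1.93 ± 1.02, did not pass (adjusted p = 0.104). Without iPSC-OB library 1 the log2 ratio of decoded means was -1.10, with the remaining library raised to 3 reads, against -2.32 with both.

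Ets1 encodes an ETS-domain factor that promotes delamination of cranial crest and is also active in endothelium, blood and mesenchyme. With base means of 637 in the ESC fit and 409 in the iPSC fit it could not be decoded by library. Estimated levels were 932 normalised counts in ESC-OB GFP+, 958 in ESC-OB and 22.4 in ESC, and 808 in iPSC-OB against 144 in iPSC. The fold changes in the authors' deposited table were 5.38 ± 0.28 in ESC-OB GFP+ (adjusted p = 8.1e-82), 5.42 ± 0.28 in ESC-OB (adjusted p = 4.25e-82) and 2.49 ± 0.31 in iPSC-OB (adjusted p = 3.38e-14). Beside Ets1, endothelial and blood genes were higher in 8 and lower in 4 of 15 cases in ESC-OB GFP+. They were higher in 10 and lower in 3 in ESC-OB, and higher in 5 and lower in 2 in iPSC-OB. Shares over all genes tested were 39.1% higher and 32.4% lower, 38.6% and 31.0%, and 26.1% and 23.1%, in the same order. The part of endothelial and blood genes in the Ets1 level was not tested. The 3 genes nearest to Ets1 over the fold changes of the authors' deposited table were Parva, Baiap2l1 and Gbp10, at distances of 0.13, 0.18 and 0.25. For Tfap2a they were Igip, Frmd4a and Lcor, at 0.12, 0.15 and 0.23.

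Sorted and unsorted cells from the ESC cultures were compared next, to see whether the crest genes follow the GFP+ cells. None of the 7 differences of log2 fold change passed an adjusted p of 0.05 (z test, standard error taken as if the ESC libraries were not shared, and so an upper bound), where 22.7% of all genes did, and 1 of the 7, Tfap2a, had an unadjusted p under 0.05. The difference, ESC-OB GFP+ change minus ESC-OB change, was -3.26 ± 1.77 for Sox10 (adjusted p = 0.203) and -1.30 ± 0.65 for Tfap2a (adjusted p = 0.148). With a standard error that takes the shared ESC libraries out, on the assumption that they and the differentiated libraries give equal parts of each variance, both passed as lower (adjusted p = 0.0287 for Sox10 and 0.0148 for Tfap2a), where 35.3% of all genes passed (17.7% lower). For Ets1 it was -0.04 ± 0.39 and for Foxd3 0.42 ± 1.12.

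The decoded reads allow that comparison without the ESC libraries. Pax3 averaged 4.90 normalised counts in ESC-OB GFP+ and 10.01 in ESC-OB, Sox10 averaged 0.993 and 11.9, and Tfap2b averaged 0.576 and 2.79. For these 3 genes every sorted library lay below every unsorted one. The same held in that direction for 10.8% and in either direction for 21.8% (11.0% higher) of 2762 decoded genes with at least 5 reads over both groups. The pooled ratio of sorted to unsorted was 0.0931 (0.0342 to 0.219) for Sox10, 0.205 (0.0440 to 0.807) for Tfap2b and 0.479 (0.273 to 0.849) for Pax3. Pax7, with 3 reads in the sorted and 2 in the unsorted libraries, overlapped. With 3 libraries a group an exact permutation test cannot go below a 2-sided p of 0.10, so no p is given for a single gene.

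**Figure D3:**
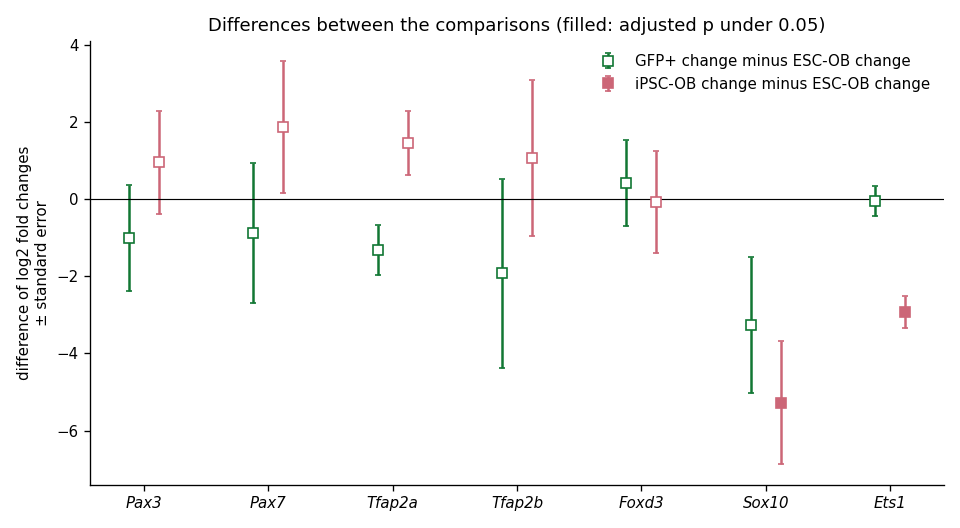
Difference of log2 fold changes (vertical axis, ± standard error) for the 7 genes: ESC-OB GFP+ change minus ESC-OB change, and iPSC-OB change minus ESC-OB change. Filled squares passed an adjusted p of 0.05 and are Sox10 (-5.28) and Ets1 (-2.93), both for iPSC-OB minus ESC-OB.

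The change in iPSC-OB was set against that in ESC-OB to see whether both pluripotent sources gave the same crest genes. The difference of log2 fold changes, iPSC-OB minus ESC-OB, passed for 2 of the 7 genes, against 28.2% of all genes tested (11.0% higher and 17.2% lower). Sox10 differed by -5.28 ± 1.60 (adjusted p = 0.00527) and Ets1 by -2.93 ± 0.42 (adjusted p = 1.15e-10). Sox10 passed as higher in ESC-OB and did not pass in iPSC-OB, and Ets1 was higher in both cultures but by less in iPSC-OB. Estimated Ets1 levels of the stem cells were 144 normalised counts in iPSC and 22.4 in ESC, in fits normalised separately. These levels were estimated with the same fold changes, and their part in the difference was not tested. The other differences were 1.88 ± 1.72 for Pax7, 1.46 ± 0.82 for Tfap2a, 1.07 ± 2.03 for Tfap2b, 0.96 ± 1.33 for Pax3 and -0.07 ± 1.33 for Foxd3 (adjusted p between 0.183 and 0.982). Tfap2b and Tfap2a passed the test in iPSC-OB and not in ESC-OB, and these differences do not show that the cultures differed. Standard errors level off at 1.89 in ESC-OB and 1.29 in iPSC-OB, as with shrunken folds, so low genes may be shrunken unequally in the 2 fits. The part of this in the differences of genes with few reads, Sox10 among them, was not tested.

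Several paralogues had larger changes than the members of their own family. Of 17 paralogues measured in the ESC tables, 10 were higher and 2 lower in ESC-OB GFP+ (median 1.36), and 9 were higher and 1 lower in ESC-OB (median 1.51). Of 16 in the iPSC table, 4 were higher and 1 lower in iPSC-OB (median 1.67). Over all genes tested, 39.1% were higher and 32.4% lower in ESC-OB GFP+, 38.6% and 31.0% in ESC-OB, and 26.1% and 23.1% in iPSC-OB. Sox9, the SoxE gene of cartilage and skeletal progenitors, stood in the authors' deposited table at 9.69 ± 0.93 in ESC-OB GFP+, 8.78 ± 0.93 in ESC-OB and 2.17 ± 0.64 in iPSC-OB, all past the test. Sox10 was at 0.09 in those sorted cells in the authors' deposited table. Sox8, the third SoxE gene, was at 1.36 ± 0.64 in ESC-OB GFP+ and 1.56 ± 0.65 in ESC-OB (adjusted p 0.0456 and 0.0253) and at -0.24 ± 0.95 in iPSC-OB, in the authors' deposited table.

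The Foxd family changed in opposite directions. Foxd1, a gene of stromal mesenchyme, was at 6.69 ± 0.51 in ESC-OB GFP+ and 5.33 ± 0.51 in ESC-OB in the authors' deposited table, both past the test. Foxd2 was at 6.54 ± 1.00 and 5.80 ± 1.01 in the authors' deposited table for the same groups, also past it. In iPSC-OB neither passed, where the authors' deposited table has 0.35 ± 0.94 for Foxd1 (adjusted p = 0.782) and 2.48 ± 1.17 for Foxd2 (adjusted p = 0.0654), and the difference between the cultures passed for Foxd1 (-4.97 ± 1.07, adjusted p = 3.99e-05). Foxd4 (base mean 0.967) did not pass in any comparison.

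Among the Pax genes, Pax1 and Pax9, which pattern the sclerotome and pharyngeal pouches, were the ones past the test in all 3 comparisons. Pax9 stood at 8.08 ± 0.95 in ESC-OB GFP+, 7.38 ± 0.95 in ESC-OB and 4.03 ± 0.84 in iPSC-OB in the authors' deposited table. Pax1 stood at 5.98 ± 0.43, 5.21 ± 0.43 and 2.62 ± 1.05 in the authors' deposited table, in the same order. Pax6, a gene of the eye and neural tube, was lower in ESC-OB GFP+ (-1.36 ± 0.52, adjusted p = 0.0137) and did not pass in ESC-OB (0.76 ± 0.51) or iPSC-OB (1.44 ± 0.82) in the authors' deposited table. Its difference between sorted and unsorted cells passed (-2.12 ± 0.73, adjusted p = 0.0195). Pax8 passed in ESC-OB GFP+ alone (1.21 ± 0.56, adjusted p = 0.0419) in the authors' deposited table, and Pax2, Pax4 and Pax5 did not pass in any comparison in which they had an adjusted p.

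Of the AP-2 paralogues, Tfap2c, which is active in pluripotent and trophoblast cells, was lower throughout: -3.43 ± 0.31 in ESC-OB GFP+, -4.27 ± 0.33 in ESC-OB and -4.36 ± 0.29 in iPSC-OB in the authors' deposited table. Tfap2e did not pass in any comparison. Ets2 was higher in all 3, at 1.45 ± 0.17, 1.51 ± 0.17 and 1.90 ± 0.19 in the authors' deposited table for ESC-OB GFP+, ESC-OB and iPSC-OB. Fli1, an ETS gene of endothelium and blood, was at 6.49 ± 1.31 and 6.34 ± 1.32 in both ESC-derived groups in the authors' deposited table, past the test, and at 1.997 ± 0.91 in iPSC-OB (adjusted p = 0.0561). Erg passed in both ESC-derived groups (2.12 ± 0.97 and 3.59 ± 0.98 in the authors' deposited table) and not in iPSC-OB (2.22 ± 1.24).

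**Figure D4:**
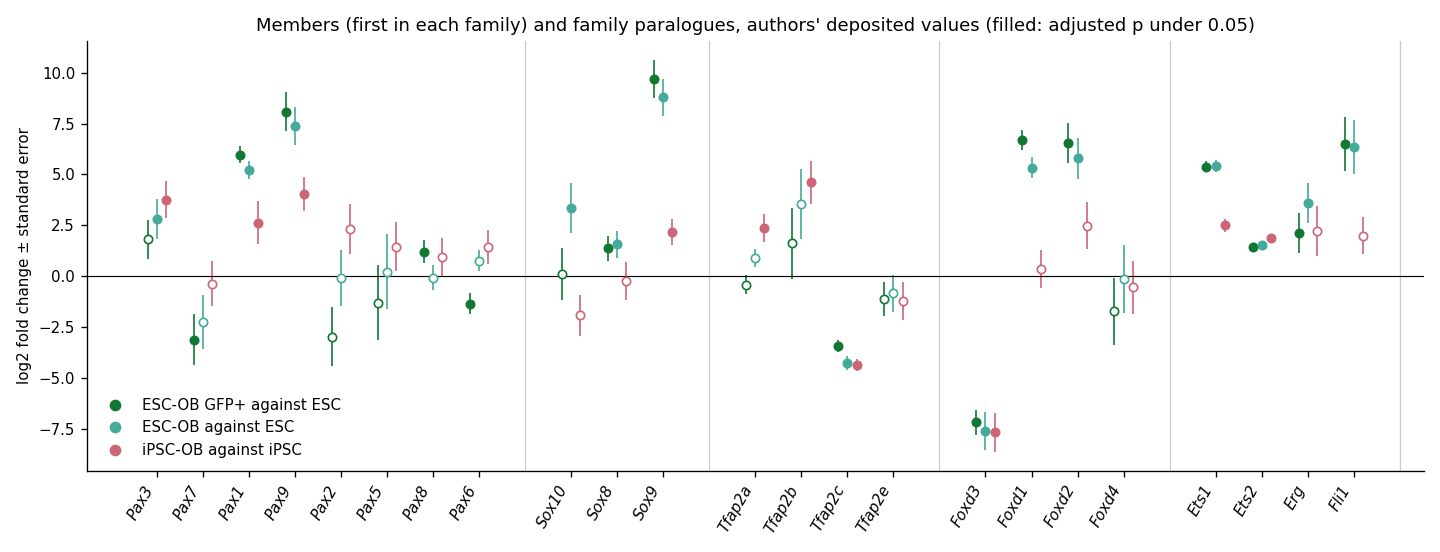
Log2 fold change (vertical axis, ± the authors' standard error) of the 7 genes and their family paralogues in ESC-OB GFP+, ESC-OB and iPSC-OB, each against its stem cells, from the authors' deposited table. Filled points passed an adjusted p of 0.05; Sox9 reaches 9.69 where Sox10 is at 0.09, and Foxd1 and Foxd2 lie above 0 where Foxd3 lies near -7.

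Lists of genes active in the crest were then read, and several of these genes also work in other tissues. Lists from outside the crest had these medians in ESC-OB GFP+: 4.46 (surface ectoderm and epithelial), 3.79 (osteoblast) and 2.12 (endothelial and blood). Others were 1.59 (paraxial mesoderm and skeletal muscle), -1.25 (central nervous system progenitor) and -8.79 (pluripotency). The counts here and in the lists that follow stand against the shares of all genes tested. Those were 39.1% higher and 32.4% lower in ESC-OB GFP+, 38.6% and 31.0% in ESC-OB, and 26.1% and 23.1% in iPSC-OB. Medians over all genes were 0.33, 0.22 and 0.17. Of 18 other crest transcription factors, 17 were higher and 1 lower in ESC-OB GFP+ (median 5.47) and in ESC-OB (median 5.34), and 11 were higher and 3 lower in iPSC-OB (median 1.28). The 4 with the strongest test in both ESC-derived groups were Id1, Id2, Nr2f2 and Lmo4. Nr2f2, a nuclear receptor gene of mesenchyme, was at 6.68 ± 0.45 in ESC-OB GFP+, 7.53 ± 0.45 in ESC-OB and 4.47 ± 0.46 in iPSC-OB in the authors' deposited table. Mycn was the gene that fell in both ESC-derived groups (-2.97 ± 0.35 and -3.51 ± 0.35 in the authors' deposited table), and in iPSC-OB Mycn, Myc and Rxrg fell. The iPSC-OB change was lower than the ESC-OB change for 10 of the 18 and higher for 1, past the test of the difference. Over all genes, 17.2% were lower and 11.0% higher in that test. Twist1, a mesenchymal regulator, was among the 10 (-2.99 ± 0.65, adjusted p = 5.12e-05), as was Sox9 (-6.62 ± 1.13, adjusted p = 9.63e-08).

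Surface and signalling genes of migratory crest split. Of 16, 8 were higher and 3 lower in ESC-OB GFP+ (median 1.28), 14 higher and 1 lower in ESC-OB (median 2.74) and 8 higher and 1 lower in iPSC-OB (median 1.00). Ednrb, an endothelin receptor gene of crest and glia, stood at 8.55 ± 0.79 in ESC-OB GFP+, 9.03 ± 0.79 in ESC-OB and 6.72 ± 0.74 in iPSC-OB in the authors' deposited table. Cdh11, a cadherin of mesenchyme and osteoblasts, was at 10.07 ± 0.79 in ESC-OB GFP+ and 10.48 ± 0.79 in ESC-OB in the authors' deposited table. Ngfr, whose product p75 is used to isolate crest cells, was lower in every comparison: -3.01 ± 0.31 in ESC-OB GFP+, -0.70 ± 0.30 in ESC-OB and -1.94 ± 0.64 in iPSC-OB in the authors' deposited table. Its fall was larger in sorted than in unsorted cells (difference -2.31 ± 0.43, adjusted p = 1.56e-06). The sorted change was also lower for Nrp2, Plxnd1, Robo1 and Epha4, so 5 of the 16 differed in that direction and 0 in the other, against 12.1% of all genes lower and 10.7% higher.

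Genes of the neural plate border and dorsal neural tube had medians below 0: -1.79 in ESC-OB GFP+ (3 higher and 5 lower of 13), -0.42 in ESC-OB (2 higher, 5 lower) and -0.69 in iPSC-OB (4 higher, 4 lower). Zic5, a zinc finger factor of the dorsal neural tube, fell in all 3 comparisons, at -4.25 ± 0.33 in ESC-OB GFP+, -3.51 ± 0.36 in ESC-OB and -2.94 ± 0.59 in iPSC-OB in the authors' deposited table. Zic1 was higher in all 3 comparisons, at 2.33 ± 0.90 in ESC-OB GFP+, 7.04 ± 0.87 in ESC-OB and 5.39 ± 0.66 in iPSC-OB in the authors' deposited table. Wnt1, which marks the dorsal midline from which crest arises, passed in iPSC-OB (3.45 ± 1.28, adjusted p = 0.016 in the authors' deposited table), at 12.5 and 3.64 normalised counts in the iPSC-OB libraries and 0 in each iPSC library.

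Derivative lists differed as well. Schwann cell and glial genes were higher in 10 and lower in 2 of 14 cases in ESC-OB GFP+. They were higher in 10 and lower in 1 in ESC-OB, and higher in 4 and lower in 3 in iPSC-OB. The iPSC-OB counts lie near the shares over all genes. Pmp22, a myelin gene that fibroblasts also express, led the list in both ESC-derived groups. Of 10 melanocyte genes measured in the ESC tables, 1 was higher and 3 were lower in ESC-OB GFP+, and 2 were higher and 4 lower in ESC-OB. In iPSC-OB, 3 of 11 were higher and 0 lower (median 0.56), against medians of -0.69 in ESC-OB GFP+ and -0.63 in ESC-OB. Mitf, the master regulator of pigment cells, was at -3.85 ± 0.22 in ESC-OB GFP+ and -1.87 ± 0.22 in ESC-OB, against 1.88 ± 0.40 in iPSC-OB, in the authors' deposited table, all past the test. Cranial mesenchyme genes had no member lower past the test: 11 of 16 were higher in ESC-OB GFP+ (median 3.16), 7 in ESC-OB (median 2.401) and 6 in iPSC-OB (median 1.62). Prrx1, a gene of craniofacial and limb mesenchyme, was at 8.93 ± 0.94 in ESC-OB GFP+, 9.97 ± 0.94 in ESC-OB and 1.77 ± 0.54 in iPSC-OB in the authors' deposited table. Osteoblast genes, the labelled cell type, were higher in 10 and lower in 1 of 12 cases in ESC-OB GFP+, higher in 8 and lower in 2 in ESC-OB, and higher in 8 and lower in 1 in iPSC-OB.

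**Figure D5:**
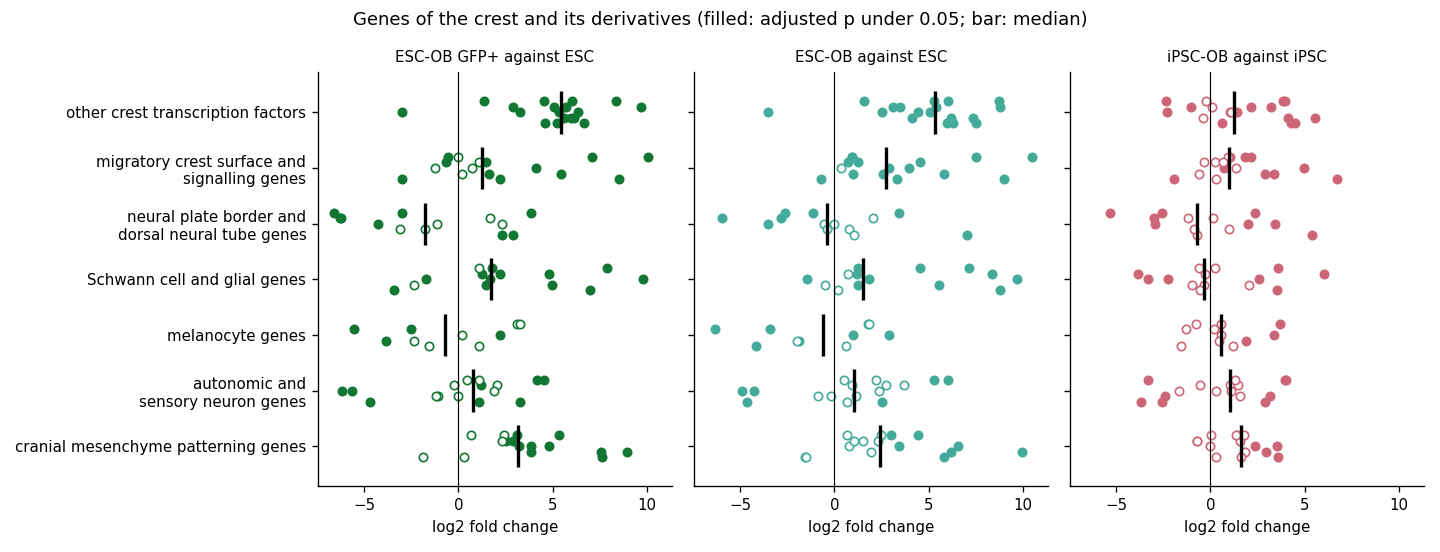
Log2 fold changes (horizontal axes, the authors' deposited values) of the genes of 7 lists, in ESC-OB GFP+, ESC-OB and iPSC-OB, each against its stem cells. Each point is a gene, filled where it passed an adjusted p of 0.05, and black bars are list medians; other crest transcription factors centre on 5.47, 5.34 and 1.28, and neural plate border genes on -1.79, -0.42 and -0.69.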

How the data were processed

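The authors deposited 3 result tables and no values per sample (columns of values per single sample: 0). The columns are, per the file headers, the base mean (a signal), log2 fold change, its standard error, a test score, and p-values before and after adjustment. Per the submitters' processing notes STAR 2.4.2a, DESeq2, R 3.2.2 and mm9 were named, with no roles. The direction of the deposited log2 values was read from the pluripotency genes. Standard errors level off at 1.89, 1.89 and 1.29, as with shrunken folds, so folds of low genes are understated. No count model was refitted.

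Members and lists were chosen with earlier results of these data known. Genes were named by rule: all members and paralogues, and per list up to 4 with the largest test statistic and those past the test in the opposite direction; genes named beside differences between cultures and in single libraries were chosen after their values were seen. Some genes that the rule names are not reported here, though they are counted in their lists. Calls use the authors' adjusted p under 0.05; missing adjusted p-values (1193 genes in ESC-OB GFP+, 1573 in ESC-OB, 1478 in iPSC-OB) were not counted as changed. Differences of folds were tested with a z test and Benjamini-Hochberg adjustment over all genes.

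Reads per library were decoded from the deposited base means as whole multiples of 1 read's value in each library. In the ESC fit 4304 of 4307 base means under 6 had 1 solution, and in the iPSC fit 6526 of 6526 under 30; of 500 shifted values per fit, 1 and 0 were decoded. Where a gene was decoded and called, the decoded means had the deposited sign in 769 of 769, 592 of 592 and 1230 of 1230 cases (ESC-OB GFP+, ESC-OB, iPSC-OB). Libraries were placed on a side by the sign of the deposited folds of genes with reads in that library alone. Those genes were not left out of the sign count, so its outcome was partly fixed by that placing. The decoding gave back all reads of simulated fits, tried for base means under 3 in the ESC fit and under 30 in the iPSC fit. Pax3 (5.35) and Sox10 (4.62) in the ESC fit and Foxd3 (96.9) in the iPSC fit lie above those limits, as do some list genes, so the simulation does not cover them. Foxd3 had a second solution in the iPSC fit at 10 times the tolerance, with reads in iPSC-OB that go against its deposited fold. Group levels were estimated with 3 iPSC libraries. Python 3.11.15, numpy 2.4.6, pandas 2.3.3, scipy 1.17.1 and statsmodels 0.14.6 were used.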

Additional observations from a re-analysis of the deposited data

Results flagged for a closer look

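Sox10 changed differently in the cultures of the pluripotent sources: the log2 fold change in iPSC-OB minus that in ESC-OB was -5.28 ± 1.60 (adjusted p = 0.00527), with 2 of 2 iPSC-OB libraries below all iPSC libraries and 3 of 3 ESC-OB libraries above all ESC libraries. All of these levels rest on at most 18 reads per library.

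Ets1 also differed between the sources, with a log2 fold change in iPSC-OB minus that in ESC-OB of -2.93 ± 0.42 (adjusted p = 1.15e-10). The estimated stem cell level was 144 normalised counts in iPSC and 22.4 in ESC, in fits that were normalised separately. Both levels were estimated with the same fold changes, and their part in the difference was not tested.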

How the results depend on the processing

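No paired analysis was possible because the tables hold no values per sample, and for the same reason refits without each replicate were not run. With a base mean of at least 10, members called numbered 2 in ESC-OB GFP+ (3 otherwise), 2 in ESC-OB (4 otherwise) and 1 for iPSC-OB minus ESC-OB (2 otherwise), because Pax7, Pax3 and Sox10 lie under that minimum in the ESC fit. With a standard error that takes out the shared ESC libraries, 3495 genes (2107 otherwise) were higher and 3493 (2392 otherwise) lower for ESC-OB GFP+ minus ESC-OB, and 2 members (0 otherwise) were called, both lower. Re-centring on the median gene turned 2 values that were not called: Sox10 in ESC-OB GFP+ (-0.12, against 0.09) and Foxd3 for iPSC-OB minus ESC-OB (0.062, against -0.066). Leaving out the authors' filter or asking for a log2 fold change of at least 1 changed no member's call. Leaving out each decoded library in turn, chosen after seeing the data, left the log2 ratio of decoded means between 1.46 and 3.12 for Pax3 and 1.71 and 3.74 for Sox10 in ESC-OB, -4.00 and -2.93 for Pax7 in ESC-OB GFP+, and 3.49 and 4.88 for Pax3, 1.62 and 3.08 for Tfap2a, 3.39 and 6.23 for Tfap2b and -6.96 and -5.47 for Foxd3 in iPSC-OB. Among values that were not called, it lay between 0.43 and 2.10 for Pax3 in ESC-OB GFP+, -0.39 and 1.43 for Tfap2b in ESC-OB and -2.51 and -1.10 for Sox10 in iPSC-OB. Pax7 lay between -2.52 and -1.39 in ESC-OB and between -0.74 and 0.10 in iPSC-OB. In ESC-OB GFP+ Sox10 lay between -1.87 and 0.04, and Tfap2b between -2.66 and -0.50. The Tfap2b values are opposite in sign to the deposited 1.62, as the ESC count of 0 was raised to the level of 3 reads. In all these ratios a group mean under the level of 3 reads over the group was raised to that level, which rises as libraries are left out. With 2 iPSC libraries, as labelled, the Ets1 levels were 695 in iPSC-OB and 124 in iPSC. Few reads limit Pax3, Pax7, Sox10 and Tfap2b in the ESC fit.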

Other observations

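Of 16 autonomic and sensory neuron genes, 5 were higher and 3 lower in ESC-OB GFP+, 3 higher and 3 lower in ESC-OB, and 4 higher and 4 lower in iPSC-OB. Hand2, which works in sympathetic neurons, heart and branchial mesenchyme, was at 4.55 ± 0.65 in ESC-OB GFP+, 5.28 ± 0.65 in ESC-OB and 3.96 ± 0.75 in iPSC-OB in the authors' deposited table, all past the test. Stmn2, of the same list, was lower past the test in all 3, at -4.71 ± 0.89, -4.66 ± 0.90 and -3.70 ± 0.54 in the same order. Pou4f1 was lower past the test in ESC-OB GFP+ (-6.16 ± 0.79) and in ESC-OB (-4.27 ± 0.73). Of 15 paraxial mesoderm and skeletal muscle genes, 8 were higher and 2 lower in ESC-OB GFP+, 7 higher and 2 lower in ESC-OB, and 3 higher and 4 lower in iPSC-OB. Over all genes tested, 39.1% were higher and 32.4% lower in ESC-OB GFP+, 38.6% and 31.0% in ESC-OB, and 26.1% and 23.1% in iPSC-OB.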
